A study of Mus musculus with 12 samples.

Results

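The change between 9.0 and 9.5 days post coitum (dpc) was described in wild-type mouse embryos. Polyadenylated RNA of 2 libraries labelled wt 9.5 dpc was compared with that of 2 libraries labelled wt 9.0 dpc, so 4 of the 11 libraries of the series that have values entered the contrast, out of 12 libraries labelled. The members were chosen by their labels alone, as the lot 1 and lot 2 libraries of each stage. The 2 libraries labelled wt PI 9.5 dpc entered the same model to help estimate the spread, and their values are given beside part of the results. The remaining libraries of the series carry a Skp1aKO or Skp1acont label at 9.5 dpc and were not used in the main model. All 6 wild-type libraries come from embryo, and no strain, sex, allele or treatment other than the word PI is given. The abbreviations mb, lot and PI are left unexplained in the labels. A growth medium for ES cells or embryoid bodies is listed for every sample. Nothing states how many embryos went into a library or whether the lots differ in embryos. The spread behind each p-value is that between libraries and could be technical. The libraries are called 9.0 lot 1, 9.0 lot 2, 9.5 lot 1 and 9.5 lot 2 below.

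At these stages the mouse neural tube closes, the midbrain and hindbrain are patterned by the isthmic organizer, which secretes FGF8 and WNT1, and by the floor plate, which secretes Sonic hedgehog (SHH). Neuroepithelial cells, which divide rapidly and rely on glycolysis, begin to turn into radial glia and to give rise to the first neurons. The heart begins to pump primitive red cells made in the yolk sac, and blood vessels and neural crest cells invade the head.

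Total counts were 4007663 and 11607085 in 9.0 lot 1 and lot 2, 3392251 and 9217568 in 9.5 lot 1 and lot 2, and 3632898 and 11190592 in wt PI. A count of 0 allows a level of up to 0.253 to 0.885 CPM (counts scaled to the library total times its TMM factor) in a single library, taking 3 counts as the limit. Mitochondrial genes took 2.438% and 2.497% of the counts at 9.0 dpc against 3.63% to 4.01% at 9.5 dpc, and globin genes 0.695% and 0.703% against 1.43% and 1.90%. Chemoreceptor genes, whose known site is the olfactory epithelium, took 0.321% to 0.489% at 9.0 dpc and 0.341% to 0.569% at 9.5 dpc, with the higher value in lot 1 at both stages. The midbrain markers Otx2, En1 and Pax5 were present at both stages, while Pax2 had few counts. Otx2, a homeobox gene of forebrain and midbrain, had 87.2 and 110.1 CPM at 9.0 dpc and 213 and 207 at 9.5 dpc. En1, of midbrain and rhombomere 1, had 39.998 and 39.7 CPM at 9.0 dpc and 18.96 and 22.5 at 9.5 dpc. Before scaling, Pax5 had 47 and 177 counts at 9.0 dpc and 32 and 89 at 9.5 dpc. Pax2 had 5 and 18 counts at 9.0 dpc and 1 and 4 at 9.5 dpc, near the limit of 3 counts. No Hox gene of 39 had enough counts to be tested with all 6 libraries, and their summed level was 2.72 to 6.17 CPM in the 4 libraries. The hindbrain genes Hoxa2 and Egr2 had at most 1.34 CPM at 9.0 dpc and at most 0.104 CPM at 9.5 dpc. A further hindbrain gene, Hoxb1, kept some reads at both stages, with 7 and 15 counts at 9.0 dpc and 4 and 8 at 9.5 dpc. The whole hindbrain list summed to 73.8 and 69.9 CPM at 9.0 dpc and 132 and 120.1 at 9.5 dpc, most of it from the ephrin receptors Epha4 and Epha7.

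A gene was called where the edgeR quasi-likelihood test, with the lot as a block, gave an adjusted p under 0.05. Of 13126 genes tested, 5389 were called (41.1%). Of these, 2448 were higher at 9.5 dpc (18.7% of the genes tested) and 2941 were lower (22.4%). A fitted change of at least 2-fold was found for 1522 called genes (11.6%), 927 higher (7.06%) and 595 lower (4.53%), while 2140 called genes changed by less than 1.5-fold. Of the called genes, 96.3% had stage values that did not overlap, against 65.1% of all genes tested. The 5389 calls became 3195 without 9.0 lot 2, and 2252 with the DESeq2 Wald test. Scaling by library totals in place of TMM moved the median change over all genes tested, on the log2 scale, from -0.03 to 0.09, and the share of calls that were higher from 45.4% to 60.6%. Changes smaller than this shift of 0.12 depend on the scaling.

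**Figure D1:**
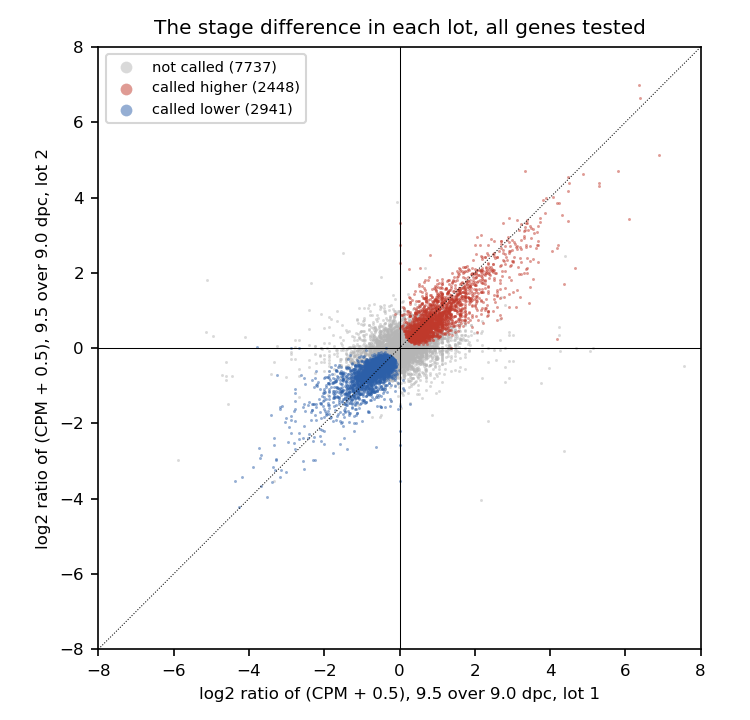
Log2 ratio of CPM + 0.5 at 9.5 over 9.0 dpc in lot 1 (x axis) against lot 2 (y axis), 1 point per gene tested (13126), coloured by call. Most called genes lie along the diagonal, with 2448 called higher and 2941 called lower, and 5372 of the 5389 (99.7%) moved the same way in both lots, against 79.9% of all genes tested.

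The calls were read through 60 lists of genes by pathway and cell type, counted beside the shares over all genes above. A member that passed the filter on low counts only through the stage where it is high had to differ, so list counts are descriptions. In bulk RNA, fewer cells of a type and less RNA per cell cannot be told apart. The lists whose members fell most uniformly were those of ribosome biogenesis and of surface ectoderm, and the lists that rose most uniformly were those of proneural factors and of postmitotic neurons. A log2 fold change is given ± an approximate standard error. This is the absolute change divided by the square root of the F statistic of the edgeR test. The p comes from that test, adjusted over all 13126 genes, and is not set by the ± value alone.

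**Figure D2:**
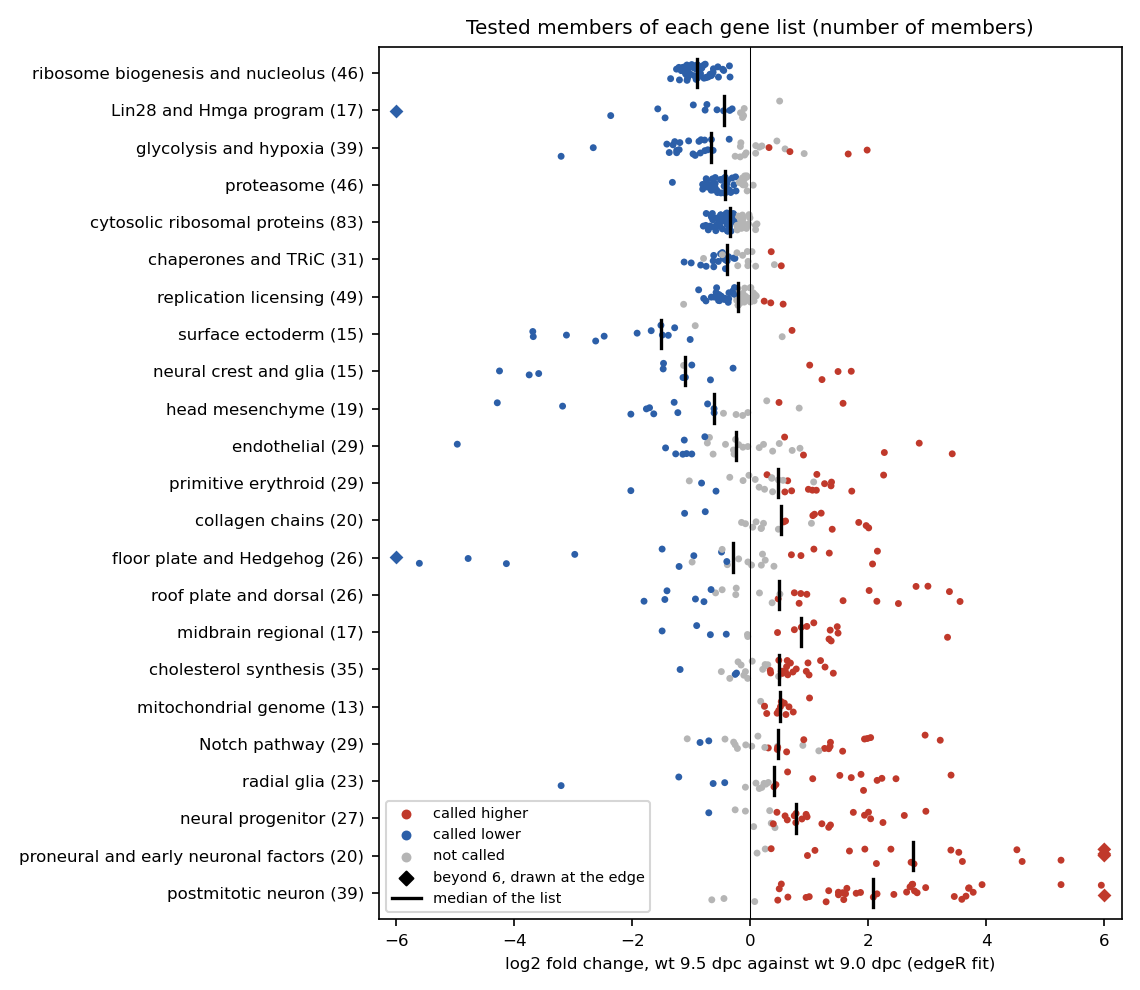
Log2 fold change of each tested member (points) of 23 gene lists, 9.5 against 9.0 dpc, coloured by call, with the list median as a black bar. Diamonds mark values beyond 6, and fitted values of genes with almost no counts at 1 stage depend on the fit's prior count. All 46 ribosome biogenesis genes lie below 0, while 36 of 39 tested neuronal genes were called higher.

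Genes of ribosome biogenesis, the nucleolar program that transcribes, cleaves and modifies ribosomal RNA, were lower at 9.5 dpc without exception among the 46 listed and tested. All 46 were called lower (median log2 fold change -0.90), against 22.4% of all genes, and 41 to 43 were called lower when 1 of the 4 libraries was left out. Ncl, which encodes the nucleolar protein nucleolin (ENSMUSG00000026234.12, chromosome 1, 86344719 to 86359400 in GRCm38), had 1079 and 1163 CPM at 9.0 dpc and 487 and 559 at 9.5 dpc, with wt PI at 1003 and 1007 CPM. Both 9.5 dpc libraries lay below both 9.0 dpc libraries, and the wt PI libraries lay just below the 9.0 dpc range (log2 fold change -1.10 ± 0.09, adjusted p = 5.98e-07 for 9.5 against 9.0 dpc, edgeR). Npm1, nucleophosmin, had 7271 and 8343 CPM at 9.0 dpc and 3712 and 4236 at 9.5 dpc (log2 fold change -0.97 ± 0.10, adjusted p = 3.95e-06). Nolc1, a chaperone of small nucleolar ribonucleoproteins, had 159.7 and 157 CPM at 9.0 dpc and 66.9 and 65.7 at 9.5 dpc, with wt PI at 122.8 and 115 CPM (log2 fold change -1.25 ± 0.09, adjusted p = 1.59e-07). Nhp2 of the box H/ACA particles that guide pseudouridylation had 437 and 452 CPM at 9.0 dpc and 171 and 212 at 9.5 dpc (log2 fold change -1.21 ± 0.09, adjusted p = 4.02e-07). Gnl3, the nucleolar GTPase nucleostemin, had 304 and 328 CPM at 9.0 dpc and 140.1 and 157 at 9.5 dpc (log2 fold change -1.09 ± 0.08, adjusted p = 4.51e-07).

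Mybbp1a, a nucleolar MYB-binding protein of ribosomal RNA transcription, had 116 and 126 CPM at 9.0 dpc and 52.7 and 59.6 at 9.5 dpc (log2 fold change -1.10 ± 0.09, adjusted p = 9.69e-07). It is shown as the member with the smallest p among the 11 of 41 matched list members (26.8%) whose RefSeq promoter window held CACGTG, the E-box bound by MYC and MAX. The same letters were in 11.4% of genes tested and 8.09% of all 27025 RefSeq genes with a window. A window runs from 250 bases before to 50 after an annotated start, both strands are searched, and a gene counts if any of its windows holds the motif. The Mybbp1a window (GRCm38 chr11:72441077-72441376, plus strand) follows, with the motif in capitals at base 41 after the start.
Mybbp1a: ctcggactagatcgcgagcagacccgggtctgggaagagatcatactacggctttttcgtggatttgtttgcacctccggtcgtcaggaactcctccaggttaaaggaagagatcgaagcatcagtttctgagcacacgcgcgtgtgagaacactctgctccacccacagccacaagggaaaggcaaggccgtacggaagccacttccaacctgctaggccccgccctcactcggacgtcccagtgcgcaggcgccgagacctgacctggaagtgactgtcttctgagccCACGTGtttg
MYC promotes transcription of nucleolar genes, but its part in these falls was not tested. Myc itself had 57.7 and 55.3 CPM at 9.0 dpc and 24.9 and 23.2 at 9.5 dpc, with wt PI at 39.9 and 40.5 CPM (log2 fold change -1.24 ± 0.11, adjusted p = 1.09e-06), lower in both 9.5 dpc libraries than in any other.

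Cytosolic ribosomal protein genes fell by less. Of 83 tested, 0 rose (1 without 9.5 lot 2) and 55 fell (median -0.35), and none by 2-fold. The fallen numbered 21 without 9.0 lot 1, 24 without 9.0 lot 2 and 32 without 9.5 lot 1, and 40 with scaling by library totals. Rplp2, of the acidic stalk of the large subunit, had 1394 and 1264 CPM at 9.0 dpc and 758 and 814 at 9.5 dpc, with wt PI at 893 and 884 CPM (log2 fold change -0.76 ± 0.09, adjusted p = 2.13e-05). Rps4l also fell (-0.75 ± 0.11 on the log2 scale), but copies of such genes share sequence and their counts are uncertain. Short and abundant genes were called lower more often in general: among 5 equal bins of exon length 31.2% of genes were lower in the shortest and 15.1% in the longest. Rises went the other way with length, with 14.01% of genes higher in the shortest bin and 25.4% in the longest. Among 5 equal bins of mean CPM 38.8% were lower in the highest and 8.99% in the lowest. The median ribosomal protein gene had 1770 bases of exon, within the shortest bin, and the median ribosome biogenesis gene 3876. The part of length and abundance in these falls was not tested.

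Genes of glycolysis, which splits glucose to pyruvate and lactate, fell together. Of 39 tested members of a list of glycolytic and hypoxia-induced genes, 22 fell and 4 rose (median -0.66). Slc2a1, the glucose transporter GLUT1, had 193 and 202 CPM at 9.0 dpc and 79.4 and 90.8 at 9.5 dpc, with wt PI at 238 and 240.3 CPM (log2 fold change -1.21 ± 0.09, adjusted p = 2.52e-07). Slc2a3, the high-affinity transporter GLUT3, had 239 and 244 CPM at 9.0 dpc and 30.2 and 42.9 at 9.5 dpc (log2 fold change -2.66 ± 0.22, adjusted p = 0.000885). For Slc2a3, the call was lost without 9.0 lot 2. Aldoa, the aldolase of the pathway's middle (ENSMUSG00000030695.16, chromosome 7, 126795234 to 126800751), had 672 and 735 CPM at 9.0 dpc and 255 and 288 at 9.5 dpc, with wt PI at 544 and 612 CPM (log2 fold change -1.37 ± 0.08, adjusted p = 5.39e-08). Tpi1, triosephosphate isomerase, had 668 and 704 CPM at 9.0 dpc and 281 and 318 at 9.5 dpc (log2 fold change -1.19 ± 0.08, adjusted p = 1.94e-07). Ldha, the lactate dehydrogenase subunit that favours lactate, had 2157 and 2446 CPM at 9.0 dpc and 804 and 1059 at 9.5 dpc, with wt PI at 2156 and 2292 CPM (log2 fold change -1.31 ± 0.10, adjusted p = 3.01e-07). Its partner Ldhb moved the other way, with 32.5 and 38.7 CPM at 9.0 dpc and 126 and 156 at 9.5 dpc, with wt PI at 133 and 135 CPM (log2 fold change 1.98 ± 0.10, adjusted p = 1.04e-08). The wt PI libraries thus lay near the 9.0 dpc level for Ldha and at the 9.5 dpc level for Ldhb. Epas1, the hypoxia-inducible factor HIF2 alpha, was also higher (1.66 ± 0.31 on the log2 scale), and the change was 2.28 without 9.0 lot 2.

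Pgk1, phosphoglycerate kinase, had 1596 and 1624 CPM at 9.0 dpc and 633 and 721 at 9.5 dpc, with wt PI at 1138 and 1132 CPM (log2 fold change -1.25 ± 0.09, adjusted p = 2.18e-07), with both 9.5 dpc libraries below all others. Its promoter window is shown because the core of hypoxia response elements, ACGTG, was found in 24 of the 34 matched list members (70.6%), against 29.0% of genes tested and 21.8% of all RefSeq genes. These letters overlap CACGTG, which 17.6% of the list held. The Pgk1 window (GRCm38 chrX:106186850-106187149, plus strand) held 2 matches, in capitals, 1 on each strand, at bases -150 and -131 from the start.
Pgk1: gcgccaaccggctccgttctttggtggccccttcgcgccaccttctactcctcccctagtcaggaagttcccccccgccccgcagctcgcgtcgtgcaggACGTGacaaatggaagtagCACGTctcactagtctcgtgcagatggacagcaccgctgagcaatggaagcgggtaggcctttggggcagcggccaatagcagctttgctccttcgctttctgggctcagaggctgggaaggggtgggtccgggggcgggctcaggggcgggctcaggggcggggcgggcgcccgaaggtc
A match is a description of letters and not of binding.

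**Figure D3:**
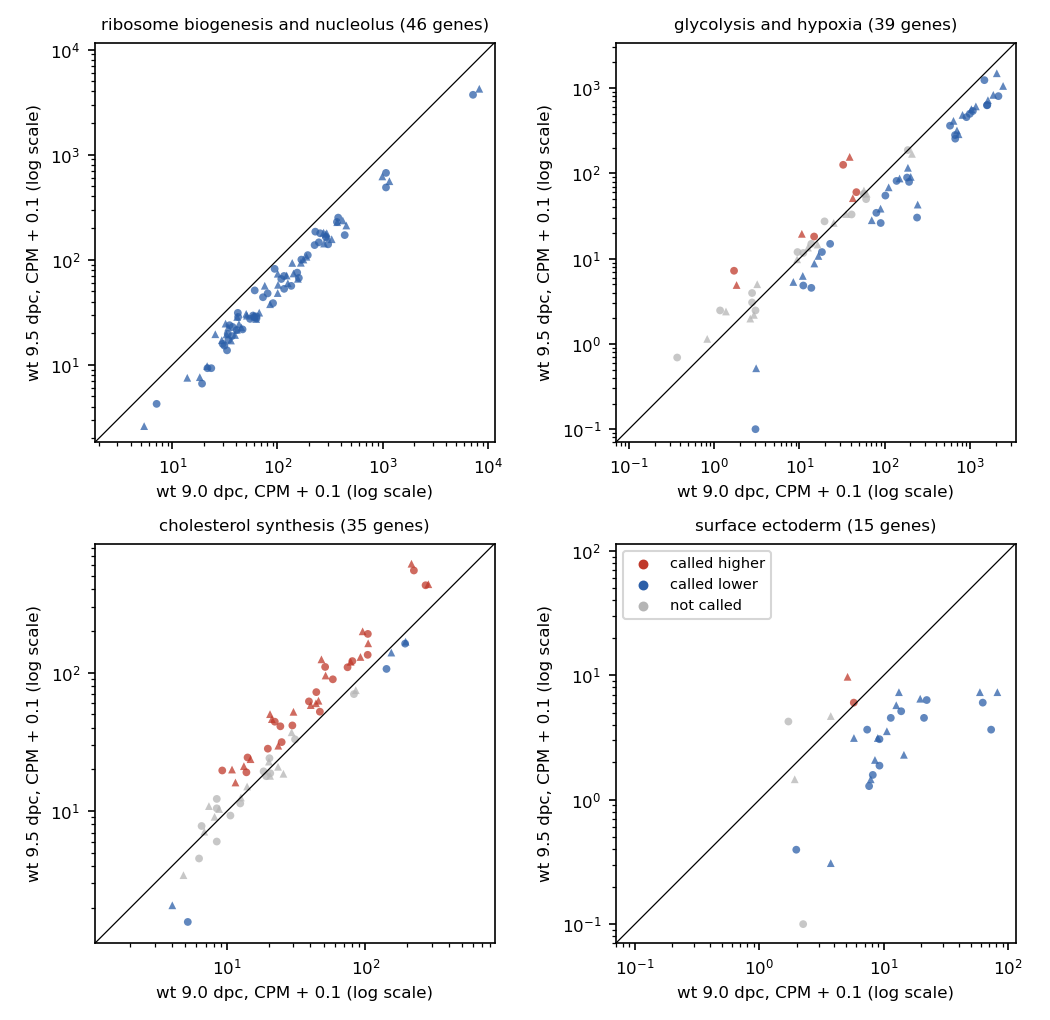
Level at 9.5 dpc (y axis) against 9.0 dpc (x axis), CPM + 0.1 on log axes, for tested members of 4 lists, 1 circle (lot 1) and 1 triangle (lot 2) per gene, with the line of equal level. All 46 ribosome biogenesis genes lie below the line, 19 of 35 cholesterol synthesis genes were called higher, and 12 of 15 surface ectoderm genes were called lower.

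The Lin28 and Hmga program, genes of early embryonic growth that the let-7 microRNAs repress as development proceeds, was lower. Of 17 tested members 11 fell and 0 rose. Lin28a, the RNA-binding protein that blocks let-7 processing (ENSMUSG00000050966.9, chromosome 4, 134003330 to 134018841), had 60.1 and 71.6 CPM at 9.0 dpc and 12.1 and 13.5 at 9.5 dpc, with wt PI at 58.4 and 60.1 CPM (log2 fold change -2.37 ± 0.12, adjusted p = 7.66e-09). The 9.5 dpc libraries were low in both lots, and the wt PI libraries lay at the lower end of the 9.0 dpc values. Lin28b had 108 and 125 CPM at 9.0 dpc and 104 and 113 at 9.5 dpc, which overlap (log2 fold change -0.10 ± 0.09, adjusted p = 0.366). Trim71, a let-7 target and RNA-binding ubiquitin ligase, had 91.8 and 88.1 CPM at 9.0 dpc and 28.7 and 35.6 at 9.5 dpc (log2 fold change -1.45 ± 0.11, adjusted p = 2.82e-07). Nr6a1, germ cell nuclear factor, had 142 and 155 CPM at 9.0 dpc and 41.8 and 56.95 at 9.5 dpc (log2 fold change -1.57 ± 0.10, adjusted p = 9.84e-08). Igf2bp1 changed by -0.74 ± 0.08 on the log2 scale. Hmga2, an architectural chromatin protein, differed by only -0.31 ± 0.08 on the log2 scale, and the call was lost without 9.0 lot 1, 9.0 lot 2 or 9.5 lot 1.

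Genes of DNA replication fell modestly, and those of mitosis changed in both directions. In the highest of the 5 bins of mean CPM 38.8% of all genes were lower, and the part of abundance here was not tested. Among 49 replication genes 21 fell (42.9%) and 3 rose (median -0.22), none by 2-fold. The fallen numbered 11 without 9.0 lot 2 and 13 without 9.5 lot 1, and the risen 0 without 9.0 lot 1 and 1 without 9.5 lot 1. The helicase subunit Mcm3 had 154 and 160.3 CPM at 9.0 dpc and 105 and 107 at 9.5 dpc (log2 fold change -0.57 ± 0.08, adjusted p = 0.000112). Orc1 of the origin recognition complex changed by -0.79 ± 0.12 on the log2 scale. Among 50 mitotic genes 17 fell (34%) and 7 rose (14%). The fallen numbered 7 without 9.0 lot 2, 9 without 9.5 lot 1 and 9 without 9.5 lot 2, and the risen 4 without 9.0 lot 1, and the median of -0.10 became 0.02 with scaling by library totals. Cdk1, the kinase that drives entry into mitosis, had 289.9 and 359.5 CPM at 9.0 dpc and 184 and 199.7 at 9.5 dpc, with wt PI at 355 and 353 CPM (log2 fold change -0.76 ± 0.09, adjusted p = 2.62e-05). Cdc25b, the phosphatase that activates it and that is transcribed in neural progenitors before they differentiate, rose, with 12.1 and 14.5 CPM at 9.0 dpc and 29.6 and 31.7 at 9.5 dpc (log2 fold change 1.18 ± 0.13, adjusted p = 8.14e-06).

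Among cyclins, kinase inhibitors and MYC family genes, 13 of 31 rose and 7 fell. The risen numbered 8 without 9.0 lot 1, and the fallen 3 without 9.0 lot 2 and 4 without 9.5 lot 1. Cdkn1c, the imprinted inhibitor p57 that accompanies exit from the cycle, had 35.2 and 27.7 CPM at 9.0 dpc and 125 and 104 at 9.5 dpc, with wt PI at 47.9 and 38.9 CPM (log2 fold change 1.88 ± 0.09, adjusted p = 8.8e-09). Cdkn1b, the inhibitor p27, had 14.5 and 9.21 CPM at 9.0 dpc and 31.99 and 17.3 at 9.5 dpc (log2 fold change 1.01 ± 0.14, adjusted p = 8.59e-05), with lot 1 above lot 2 at both stages. Cdk6, a kinase of the G1 phase, had 21.5 and 20.3 CPM at 9.0 dpc and 47.7 and 45.5 at 9.5 dpc (log2 fold change 1.16 ± 0.11, adjusted p = 2.83e-06). Mycl rose by 0.94 ± 0.09 on the log2 scale and Mycn, the family member of neural progenitors, changed by -0.45 ± 0.09 on the log2 scale.

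More genes of protein turnover and folding fell than rose. Of 46 proteasome genes 35 fell and 0 rose (median -0.44), with 25 to 32 called lower when 1 library was left out. Psmb10, a catalytic subunit of the immunoproteasome, was furthest, with 27.1 and 23.9 CPM at 9.0 dpc and 10.7 and 9.61 at 9.5 dpc (log2 fold change -1.32 ± 0.14, adjusted p = 7.16e-06). Psmc5, an ATPase of the regulatory particle, had 163 and 182 CPM at 9.0 dpc and 87.1 and 109 at 9.5 dpc, with wt PI at 224 and 229.7 CPM (log2 fold change -0.81 ± 0.09, adjusted p = 1.49e-05). Psmb3 of the core had 515 and 523 CPM at 9.0 dpc and 307 and 347 at 9.5 dpc (log2 fold change -0.66 ± 0.09, adjusted p = 4.43e-05). Of 31 chaperone genes 18 fell and 2 rose. The fallen numbered 10 without 9.0 lot 2, and the risen 0 without 9.0 lot 1, 1 without 9.0 lot 2, 1 without 9.5 lot 1 and 1 without 9.5 lot 2. Stip1, which links HSP70 to HSP90, had 106 and 122 CPM at 9.0 dpc and 53.02 and 61.03 at 9.5 dpc, with wt PI at 155 and 172 CPM (log2 fold change -1.003 ± 0.09, adjusted p = 1.46e-06). Cct7 of the TRiC chaperonin had 259.9 and 296 CPM at 9.0 dpc and 137 and 172 at 9.5 dpc (log2 fold change -0.84 ± 0.09, adjusted p = 6.69e-06). For Psmc5, Stip1 and Cct7 the wt PI libraries, 349 and 374 CPM for Cct7, lay above the 9.0 dpc values and not only above the 9.5 dpc values.

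Of 24 genes of the integrated stress response 12 fell and 0 rose. The fallen numbered 6 without 9.0 lot 2 and 7 without 9.5 lot 2, and the risen 2 without 9.0 lot 2, 1 without 9.5 lot 1, 1 without wt PI lot 1 and 1 without wt PI lot 2. Asns, asparagine synthetase and a target of ATF4, had 54.2 and 63.8 CPM at 9.0 dpc and 31.1 and 36.7 at 9.5 dpc, with wt PI at 75.7 and 83.7 CPM (log2 fold change -0.80 ± 0.10, adjusted p = 2.77e-05), again highest in wt PI. Among 36 antioxidant genes 15 fell and 5 rose. Prdx6, a peroxiredoxin, had 303 and 355 CPM at 9.0 dpc and 114 and 147 at 9.5 dpc (log2 fold change -1.33 ± 0.09, adjusted p = 1.25e-07). Gpx8, an endoplasmic reticulum peroxidase, had 62.8 and 66.6 CPM at 9.0 dpc and 157 and 194 at 9.5 dpc (log2 fold change 1.45 ± 0.09, adjusted p = 8.47e-08), and Srxn1 was among the others that rose.

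The mitochondrial genome and the nuclear genes of the respiratory chain did not move alike. Of the 13 protein-coding genes of the mitochondrial genome 11 rose and 0 fell (median 0.51), and the risen numbered 5 without 9.0 lot 1. mt-Co3, a core subunit of complex IV, had 3139 and 3192 CPM at 9.0 dpc and 5440.5 and 5045 at 9.5 dpc, with wt PI at 3265 and 3336 CPM (log2 fold change 0.73 ± 0.09, adjusted p = 3.6e-05). mt-Nd6, the only one of them read from the light strand, had 338 and 352 CPM at 9.0 dpc and 719 and 666 at 9.5 dpc (log2 fold change 1.003 ± 0.09, adjusted p = 1.23e-06), although strand-specific counting is not stated, so its reads and those of the opposite strand may be mixed. Of 85 nuclear genes 24 fell (28.2%) and 9 rose (10.6%), against 22.4% and 18.7% of all genes tested. The fallen numbered 12 without 9.0 lot 1, 13 without 9.0 lot 2 and 9 without 9.5 lot 1, the risen 4 without 9.0 lot 1 and 5 without 9.0 lot 2, and the median of -0.10 became 0.02 with scaling by library totals. Atp5g1, a c subunit of ATP synthase, had 505 and 499.5 CPM at 9.0 dpc and 271 and 316 at 9.5 dpc (log2 fold change -0.77 ± 0.09, adjusted p = 1.56e-05). Sdhd of complex II had 58.5 and 62.8 CPM at 9.0 dpc and 25.8 and 33.3 at 9.5 dpc, with wt PI at 98.03 and 101 CPM (log2 fold change -1.01 ± 0.11, adjusted p = 8.03e-06).

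Genes of cholesterol synthesis rose. This pathway makes the sterol that membranes and the SHH ligand carry, and the factor SREBP2 drives it when sterol is low. Of 35 tested members 19 rose and 3 fell (median 0.48), against 18.7% and 22.4% of all genes. The fallen numbered 1 without 9.0 lot 1, 0 without 9.0 lot 2 and 0 without 9.5 lot 1. Hmgcs1, the synthase of the entry step (ENSMUSG00000093930.2, chromosome 13, 119690379 to 119708260), had 224 and 215 CPM at 9.0 dpc and 547 and 612 at 9.5 dpc, with wt PI at 315 and 337 CPM (log2 fold change 1.41 ± 0.09, adjusted p = 7.13e-08). The wt PI libraries lay between the stages. Sqle, squalene epoxidase, had 74.1 and 78.03 CPM at 9.0 dpc and 109 and 119.8 at 9.5 dpc (log2 fold change 0.59 ± 0.09, adjusted p = 0.000107). Cyp51, lanosterol demethylase, had 51.005 and 47.9 CPM at 9.0 dpc and 109.9 and 125 at 9.5 dpc (log2 fold change 1.27 ± 0.11, adjusted p = 9.25e-07). Stard4, a sterol carrier, had 22.01 and 20.3 CPM at 9.0 dpc and 44.1 and 50.1 at 9.5 dpc (log2 fold change 1.19 ± 0.12, adjusted p = 3.72e-06). Srebf2, which encodes SREBP2, had 20.1 and 19.96 CPM at 9.0 dpc and 23.99 and 22.7 at 9.5 dpc and was not called (log2 fold change 0.21 ± 0.13, adjusted p = 0.227).

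The Hmgcs1 window (GRCm38 chr13:119690101-119690400, plus strand) is shown because it was the 1 window among 24 matched list members (4.17%) that held TCACCCCAC, a sterol response element sequence. The motif was in 0.644% of genes tested and 0.614% of all RefSeq genes. It is in capitals at base -137.
Hmgcs1: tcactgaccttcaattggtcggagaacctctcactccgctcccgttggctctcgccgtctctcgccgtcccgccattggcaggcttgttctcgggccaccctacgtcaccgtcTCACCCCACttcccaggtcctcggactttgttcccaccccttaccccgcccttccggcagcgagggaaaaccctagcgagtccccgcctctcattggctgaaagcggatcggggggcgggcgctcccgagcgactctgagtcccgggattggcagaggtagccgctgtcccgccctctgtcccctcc
This motif was looked for after the results had been seen, as were CACGTG and ACGTG.

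Genes of the ventral midline fell while several dorsal genes rose. Among 26 tested floor plate and Hedgehog genes 10 fell and 6 rose. Foxa2, the forkhead factor that specifies the floor plate (ENSMUSG00000037025.11, chromosome 2, 148042877 to 148046969), had 9.13 and 8.84 CPM at 9.0 dpc and 0 and 0 at 9.5 dpc, with wt PI at 10.8 and 10.2 CPM. At 9.5 dpc it was at least 38.5-fold lower, at least 10.03 without 9.5 lot 2, taking 3 counts over the group at 0 as the limit. The wt PI libraries lay just above the 9.0 dpc level. Foxa1 had 9.93 and 7.66 CPM at 9.0 dpc and 0 and 0.209 at 9.5 dpc, with wt PI at 7.81 and 10.8 CPM, and was lower at 9.5 dpc (ratio 53.3, 95% interval 14.4 to 445, at least 9.27 without 9.5 lot 2). For genes with 1 to 3 counts in a stage the ratio of summed CPM is given with its exact interval, which covers counting error only. Shh, the ligand they switch on, had 10.7 and 7.47 CPM at 9.0 dpc and 0.889 and 0.313 at 9.5 dpc, with wt PI at 9.16 and 13.3 CPM (log2 fold change -4.14 ± 0.46, adjusted p = 2.72e-05). For Shh, the change was -4.75 without 9.0 lot 2 and -3.17 without 9.5 lot 2. Nkx2-9, a homeobox gene beside the floor plate, had 6.98 and 6.75 CPM at 9.0 dpc and 0 and 0.313 at 9.5 dpc, with wt PI at 13.7 and 15.1 CPM (ratio 29.4, 95% interval 9.76 to 145, at least 7.66 without 9.5 lot 2, lower). Spon1, F-spondin of the floor plate matrix, had 35.7 and 44.8 CPM at 9.0 dpc and 5.63 and 5.12 at 9.5 dpc, with wt PI at 27.2 and 28.3 CPM (log2 fold change -2.98 ± 0.16, adjusted p = 1.23e-08). In all these genes the 9.5 dpc libraries lay below every library of both other groups.

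Among Hedgehog receptors and effectors, Ptch1, the receptor and a direct target of the pathway, had 107 and 114 CPM at 9.0 dpc and 61.3 and 54.2 at 9.5 dpc, with wt PI at 101 and 103 CPM (log2 fold change -0.96 ± 0.10, adjusted p = 4.3e-06). Gli1, another direct target, had 2.15 and 2.28 CPM at 9.0 dpc and 2.37 and 1.46 at 9.5 dpc, which overlap (log2 fold change -0.39 ± 0.38, adjusted p = 0.441). Boc, a coreceptor that Hedgehog signalling represses, had 16.1 and 16.04 CPM at 9.0 dpc and 44.4 and 38.7 at 9.5 dpc, with wt PI at 16.97 and 14.99 CPM (log2 fold change 1.34 ± 0.12, adjusted p = 1.77e-06). Corin, a protease of the midbrain floor plate, had 0.537 and 0.638 CPM at 9.0 dpc and 2.67 and 2.82 at 9.5 dpc (log2 fold change 2.15 ± 0.45, adjusted p = 0.00163). For Corin, the call was lost without 9.0 lot 2 or 9.5 lot 2.

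Of 26 roof plate and dorsal genes 13 rose and 6 fell. Zic1 and Zic4, neighbouring zinc finger genes of the dorsal neural tube, rose together. Zic1 had 29.8 and 28.6 CPM at 9.0 dpc and 169 and 165 at 9.5 dpc, with wt PI at 68.9 and 60.03 CPM (log2 fold change 2.51 ± 0.10, adjusted p = 9.59e-10). Zic4 had 4.56 and 6.11 CPM at 9.0 dpc and 56.3 and 59.5 at 9.5 dpc, with wt PI at 21.3 and 23.3 CPM (log2 fold change 3.37 ± 0.14, adjusted p = 1.49e-09). Rspo3, a WNT agonist, had 0.537 and 1.73 CPM at 9.0 dpc and 12.4 and 18.4 at 9.5 dpc (log2 fold change 3.55 ± 0.25, adjusted p = 1.63e-07). For Rspo3, the change was 4.58 without 9.0 lot 2. Draxin, an axon repellent, had 1.34 and 3.19 CPM at 9.0 dpc and 18.96 and 18.9 at 9.5 dpc (log2 fold change 2.81 ± 0.24, adjusted p = 2.08e-06). For Draxin, the change was 3.93 without 9.0 lot 2. Id1 and Id2, inhibitors of bHLH factors and targets of BMP signals, fell. Id1 had 109 and 109.6 CPM at 9.0 dpc and 42.7 and 39.8 at 9.5 dpc, with wt PI at 114 and 107 CPM (log2 fold change -1.41 ± 0.09, adjusted p = 9.94e-08). Id2 changed by -0.93 ± 0.09 on the log2 scale. In the BMP and TGF-beta list as a whole 14 of 36 rose and 11 fell, with Bmpr2, a type II receptor, higher (1.05 ± 0.10 on the log2 scale).

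**Figure D4:**
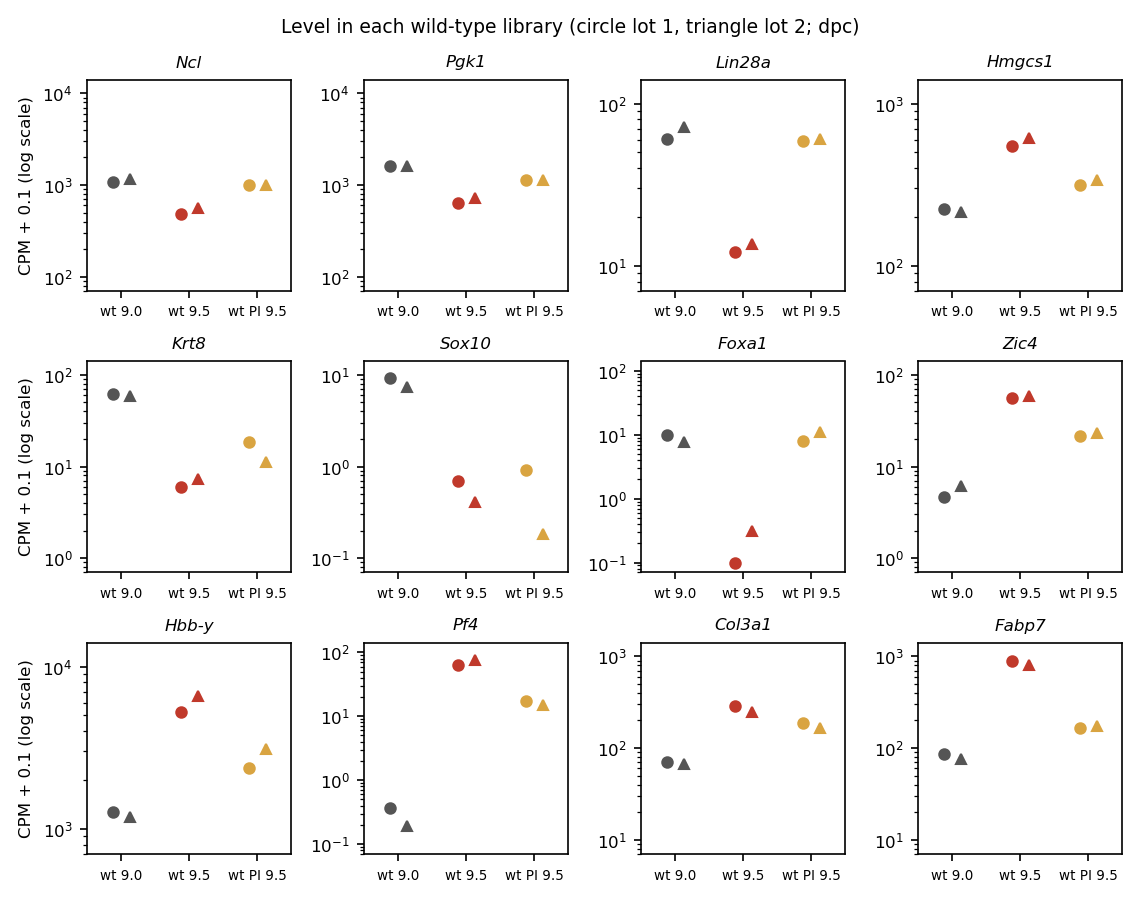
CPM + 0.1 on a log axis for 12 genes in the wild-type libraries at 9.0 dpc, 9.5 dpc and in wt PI 9.5 dpc (circle lot 1, triangle lot 2). Foxa1 and Lin28a are low only in the 9.5 dpc libraries of the 3 groups, Krt8 and Sox10 are highest at 9.0 dpc, and Zic4, Pf4, Hbb-y, Col3a1, Fabp7 and Hmgcs1 are highest at 9.5 dpc with wt PI between the stages.

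Genes of the isthmus and midbrain changed in both directions. Of 29 isthmic and FGF genes 10 rose and 11 fell, the latter 7 without 9.0 lot 2. Gbx2, which sets the hindbrain side of the isthmus, had 11.8 and 11.2 CPM at 9.0 dpc and 2.37 and 3.76 at 9.5 dpc (log2 fold change -1.76 ± 0.22, adjusted p = 3.13e-05). En1 changed by -0.91 ± 0.11 on the log2 scale, whereas its paralogue En2 had 15.8 and 17.2 CPM at 9.0 dpc and 46.8 and 40.7 at 9.5 dpc, with wt PI at 34.2 and 32.01 CPM (log2 fold change 1.35 ± 0.12, adjusted p = 1.72e-06). Cnpy1, an FGF signalling regulator of the isthmus, had 13.96 and 13.6 CPM at 9.0 dpc and 100.4 and 91.3 at 9.5 dpc, with wt PI at 89.1 and 104 CPM (log2 fold change 2.80 ± 0.12, adjusted p = 2.29e-09), so that wt PI lay at the 9.5 dpc level. Fgfr3 had 5.64 and 5.38 CPM at 9.0 dpc and 20.4 and 19.4 at 9.5 dpc, with wt PI at 4.85 and 4.15 CPM (log2 fold change 1.85 ± 0.17, adjusted p = 1.72e-06), so that wt PI lay just below the 9.0 dpc level. Of 17 midbrain genes 11 rose and 4 fell, the latter 2 without 9.0 lot 2 and 2 without 9.5 lot 2. Otx2 changed by 1.08 ± 0.10 on the log2 scale, and Meis2, a homeobox gene of the tectum (ENSMUSG00000027210.20, chromosome 2, 115863064 to 116065839), had 59.1 and 56.8 CPM at 9.0 dpc and 159 and 142 at 9.5 dpc, with wt PI at 72.4 and 74.2 CPM (log2 fold change 1.37 ± 0.09, adjusted p = 1.07e-07). Tal2, a bHLH factor of midbrain GABAergic neurons, had 38.7 and 47.03 CPM at 9.0 dpc and 114 and 126 at 9.5 dpc, with wt PI at 125 and 128 CPM (log2 fold change 1.47 ± 0.10, adjusted p = 9.04e-08).

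Of 12 tested forebrain and eye field genes 6 rose and 2 fell, the latter 1 without 9.0 lot 2, 5 of 17 tested without 9.5 lot 1, 1 without 9.5 lot 2 and 5 of 17 tested without wt PI lot 1. Hesx1, a homeobox gene of the anterior neural plate and pituitary, had 21.2 and 19.1 CPM at 9.0 dpc and 1.18 and 1.04 at 9.5 dpc, with wt PI at 0.539 and 1.61 CPM (log2 fold change -4.17 ± 0.27, adjusted p = 1.07e-07). Those that rose also mark diencephalon or midbrain, such as Lhx9, a LIM homeobox gene, with 1.34 and 1.003 CPM at 9.0 dpc and 30.5 and 23.7 at 9.5 dpc (log2 fold change 4.53 ± 0.23, adjusted p = 9.87e-09), and Irx2 (1.02 ± 0.12 on the log2 scale). Of the 21 listed hindbrain genes only 5 could be tested, 2 of them higher and 1 lower (Gbx2), the lower numbering 4 of 9 tested without wt PI lot 1.

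In the Wnt pathway 12 of 44 genes rose and 7 fell, the risen numbering 5 without 9.0 lot 1 and 7 without 9.5 lot 1. The ligand Wnt5a had 15.6 and 14.4 CPM at 9.0 dpc and 58.1 and 45.9 at 9.5 dpc (log2 fold change 1.76 ± 0.12, adjusted p = 1.79e-07). The receptor Fzd7 had 59.9 and 54.3 CPM at 9.0 dpc and 15.7 and 18.6 at 9.5 dpc (log2 fold change -1.68 ± 0.12, adjusted p = 2.52e-07). In the retinoic acid pathway 5 of 17 rose (29.4%) and 3 fell (17.6%). The Wnt pathway shares were 27.3% and 15.9%, against 18.7% and 22.4% of all genes tested. Cyp26a1, which degrades retinoic acid, had 7.25 and 5.10 CPM at 9.0 dpc and 0.296 and 0.209 at 9.5 dpc (ratio 24.4, 95% interval 8.06 to 121, lower). Crabp1, which binds retinoic acid in the cell, had 268 and 279.7 CPM at 9.0 dpc and 579.7 and 691 at 9.5 dpc, with wt PI at 461 and 504 CPM (log2 fold change 1.21 ± 0.09, adjusted p = 2.1e-07).

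Most called genes of the surface ectoderm, neural crest and head mesenchyme lists were lower at 9.5 dpc. Of 30 surface ectoderm genes 15 were tested, 12 fell and 1 rose (median -1.52, or -2.20 without 9.5 lot 2), the risen numbering 0 without 9.0 lot 2 and 0 without 9.5 lot 2. Their summed level over the whole list was 267 and 267 CPM at 9.0 dpc, 54.2 and 68.03 at 9.5 dpc, with wt PI at 74.6 and 61.7 CPM. Krt8 and Krt18, the keratin pair of simple epithelia, fell together. Krt8 had 62.3 and 59.1 CPM at 9.0 dpc and 5.92 and 7.21 at 9.5 dpc, with wt PI at 18.6 and 11.1 CPM (log2 fold change -3.12 ± 0.19, adjusted p = 4.65e-07). Krt18 had 72.7 and 81.7 CPM at 9.0 dpc and 3.55 and 7.21 at 9.5 dpc, with wt PI at 14.01 and 12.5 CPM (log2 fold change -3.69 ± 0.17, adjusted p = 1.99e-08), and for it the change was -4.39 without 9.5 lot 2. Epcam, an epithelial adhesion molecule, had 22.01 and 19.5 CPM at 9.0 dpc and 6.22 and 6.37 at 9.5 dpc (log2 fold change -1.68 ± 0.17, adjusted p = 4.05e-06). Cdh1, E-cadherin, had 13.7 and 13.1 CPM at 9.0 dpc and 5.04 and 7.21 at 9.5 dpc (log2 fold change -1.02 ± 0.19, adjusted p = 0.000794). Trp63, which marks stratifying epidermis, had 1.61 and 3.65 CPM at 9.0 dpc and 4.15 and 4.60 at 9.5 dpc, which did not overlap but were not called different (log2 fold change 0.54 ± 0.29, adjusted p = 0.164).

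Of 15 neural crest genes 10 fell and 4 rose, but the summed level of the whole list was higher at 9.5 dpc. It was 642 and 676 CPM at 9.0 dpc, 898 and 957 at 9.5 dpc, with wt PI at 655 and 707 CPM. This sum includes Crabp1, whose level is given above. Sox10, of migrating crest and its glia, had 9.13 and 7.20 CPM at 9.0 dpc and 0.592 and 0.313 at 9.5 dpc, with wt PI at 0.808 and 0.0847 CPM (log2 fold change -4.25 ± 0.44, adjusted p = 4.49e-06). For Sox10, the change was -4.91 without 9.0 lot 1 and -3.38 without 9.0 lot 2. Erbb3, the neuregulin receptor of crest, had 11.01 and 9.02 CPM at 9.0 dpc and 1.48 and 0.522 at 9.5 dpc (log2 fold change -3.59 ± 0.33, adjusted p = 1.9e-06). For Erbb3, the change was -2.87 without 9.5 lot 2. Foxd3 had 3.76 and 3.19 CPM at 9.0 dpc and 0.296 and 0.209 at 9.5 dpc (ratio 14.4, 95% interval 4.64 to 72.2, lower). The members that rose, Crabp1, Ednrb, Tfap2b and Itga4, are not particular to crest, and Ednrb is also expressed in radial glia (1.71 ± 0.16 on the log2 scale). Of 19 head mesenchyme genes 11 fell and 2 rose. The fallen numbered 6 without 9.5 lot 2, and the risen 1 without 9.0 lot 2. Foxc2 had 10.7 and 6.84 CPM at 9.0 dpc and 0.592 and 0.313 at 9.5 dpc (log2 fold change -4.29 ± 0.40, adjusted p = 2.29e-06). Twist1 had 52.6 and 44.1 CPM at 9.0 dpc and 37.6 and 27.1 at 9.5 dpc (log2 fold change -0.61 ± 0.13, adjusted p = 0.00179), but the call was lost without 9.5 lot 2. Prrx1 was higher (0.49 ± 0.12 on the log2 scale), but the call was lost without 9.0 lot 2 or 9.5 lot 2. The mesenchyme list as a whole summed to 269 and 246 CPM at 9.0 dpc, 225 and 190.5 at 9.5 dpc, with wt PI at 146 and 146 CPM. The part that the share of these tissues in each dissection had in the results was not tested.

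More genes of the epiblast and pluripotency list fell than rose. Whether pluripotent cells remained at either stage was not tested. Of 30 epiblast genes 10 were tested, 6 fell and 2 rose (Otx2 and Fgf15, both also neural), and the fallen numbered 3 without 9.0 lot 2 and 3 without 9.5 lot 1. Dnmt3b, the de novo DNA methyltransferase of the epiblast, had 63.1 and 63.9 CPM at 9.0 dpc and 22.2 and 20.2 at 9.5 dpc, with wt PI at 29.9 and 30.4 CPM (log2 fold change -1.60 ± 0.11, adjusted p = 1.27e-07). Of 30 endoderm genes 13 were tested, 5 fell and 0 rose, the fallen numbering 2 without 9.0 lot 2. Afp and Ttr, which define yolk sac endoderm, had at most 0.456 CPM in any of the 4 libraries. Spink1, a trypsin inhibitor of endoderm, had 12.1 and 8.93 CPM at 9.0 dpc and 0.592 and 0.104 at 9.5 dpc, with wt PI at 21.01 and 25.3 CPM (ratio 41.99, 95% interval 14.1 to 206, 93.1 without 9.5 lot 1 and 16.4 without 9.5 lot 2, lower). Of 24 muscle genes 7 were tested, 2 fell and 0 rose, the fallen numbering 4 of 11 tested without wt PI lot 1. Cardiac actin Actc1 had 4.83 and 5.20 CPM at 9.0 dpc and 0.592 and 0.522 at 9.5 dpc (log2 fold change -3.20 ± 0.40, adjusted p = 2.69e-05). Car4, a membrane carbonic anhydrase, was among the largest falls outside these lists, with 63.4 and 78.03 CPM at 9.0 dpc and 5.92 and 7.84 at 9.5 dpc, with wt PI at 68.7 and 83.1 CPM (log2 fold change -3.34 ± 0.12, adjusted p = 6.85e-10). Prtg, protogenin of early neuroepithelium and mesoderm, had 737 and 771 CPM at 9.0 dpc and 228 and 269.5 at 9.5 dpc, with wt PI at 806 and 769 CPM (log2 fold change -1.60 ± 0.10, adjusted p = 4.1e-08).

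Blood genes rose at the level of globins and platelet and macrophage products. Of 29 tested erythroid genes 13 rose and 3 fell, the risen numbering 6 without 9.0 lot 2 and 8 without 9.5 lot 2. Hbb-y, the embryonic epsilon-like globin (ENSMUSG00000052187.4, chromosome 7, 103851749 to 103853216), had 1274 and 1182 CPM at 9.0 dpc and 5236 and 6631 at 9.5 dpc, with wt PI at 2369.8 and 3100.2 CPM (log2 fold change 2.26 ± 0.12, adjusted p = 8.47e-08). The zeta-like globin Hba-x rose less, with 1291 and 1255 CPM at 9.0 dpc and 1872 and 2290.2 at 9.5 dpc (log2 fold change 0.70 ± 0.10, adjusted p = 0.000122). Hbb-bh1 had 3619 and 3478 CPM at 9.0 dpc and 4832 and 6290.3 at 9.5 dpc (log2 fold change 0.63 ± 0.11, adjusted p = 0.000512). For Hbb-bh1, the call was lost without 9.0 lot 2. The near-identical adult copies are uncertain. Hbb-bt had 17.99 and 22.97 CPM at 9.0 dpc and 55.4 and 47.7 at 9.5 dpc. Hbb-bs had 125 and 200.3 CPM at 9.0 dpc and 45.02 and 37.5 at 9.5 dpc, in the opposite direction. Of the regulators of these genes, Gata1 and Klf1 were not called, at levels that rest on few reads, and Klf1 was lower at 9.5 dpc in both lots. Gata1 had 1.61 and 2.28 CPM at 9.0 dpc and 1.48 and 2.09 at 9.5 dpc (log2 fold change -0.12 ± 0.38, adjusted p = 0.825). Klf1 had 2.68 and 2.28 CPM at 9.0 dpc and 0.889 and 1.25 at 9.5 dpc (log2 fold change -1.03 ± 0.42, adjusted p = 0.0655).

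Of 20 platelet genes 9 were tested, 6 rose and 1 fell, the fallen numbering 0 without 9.5 lot 2. Pf4, the platelet factor 4 chemokine that early macrophages also make (ENSMUSG00000029373.7, chromosome 5, 90772435 to 90773383), had 0.268 and 0.0912 CPM at 9.0 dpc and 63.1 and 74.9 at 9.5 dpc, with wt PI at 16.97 and 14.8 CPM (ratio 528, 95% interval 146 to 4365, 268 without 9.0 lot 2). Ppbp, another platelet chemokine, had 0 and 0 CPM at 9.0 dpc and 4.15 and 4.39 at 9.5 dpc, so it was at least 21.2-fold higher, at least 5.37 without 9.0 lot 2. Its call was lost without 9.5 lot 2. Of 26 macrophage genes 7 were tested, 5 rose and 0 fell, the risen numbering 10 of 15 tested without wt PI lot 1 and 8 of 10 tested without wt PI lot 2. Tyrobp, an adaptor of myeloid receptors, had 0 and 0.182 CPM at 9.0 dpc and 5.92 and 4.39 at 9.5 dpc (ratio 35.2, 95% interval 9.34 to 297, at least 5.95 without 9.0 lot 2). Csf1r, the receptor that macrophages need, had 0 and 1.28 CPM at 9.0 dpc and 9.77 and 5.33 at 9.5 dpc (log2 fold change 2.77 ± 0.61, adjusted p = 0.0097). With 9.0 lot 1 at 0, this change rests on few reads: it was 2.10 without 9.0 lot 1 and 2.09 without 9.5 lot 1. Without 9.0 lot 2 the 9.0 dpc library left had 0 counts. Without 9.5 lot 2 the 9.5 dpc library left was paired by lot with 9.0 lot 1 at 0 counts, while 9.0 lot 2 had 14 counts. The defining markers C1qa and Spi1 had at most 0.296 CPM. In wt PI lot 1 and lot 2, also at 9.5 dpc, Ppbp had 0 and 0 counts, Tyrobp 1 and 5, and Csf1r 0 and 5.

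The Pf4 window (GRCm38 chr5:90772185-90772484, plus strand) held AGATAA, the letters that GATA factors bind, at base 37, and the E-box CAGCTG at base -117, both in capitals. AGATAA was in 6 of 19 matched erythroid list members (31.6%), in 8.21% of genes tested and in 12.7% of all RefSeq genes. The CACC motif CCACACCC, bound by KLF1, was in 1 of the 19 (5.26%), against 3.98% of genes tested.
Pf4: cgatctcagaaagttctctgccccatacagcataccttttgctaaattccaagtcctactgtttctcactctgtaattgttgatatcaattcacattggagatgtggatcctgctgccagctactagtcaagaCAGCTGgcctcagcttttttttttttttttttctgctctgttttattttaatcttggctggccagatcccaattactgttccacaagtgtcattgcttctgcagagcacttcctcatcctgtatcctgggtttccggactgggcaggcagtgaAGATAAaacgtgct
With so few windows matched, the shares describe these genes only.

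Endothelial genes moved both ways, in shares near those of all genes tested (18.7% higher and 22.4% lower). Of 29 tested 5 rose (17.2%) and 8 fell (27.6%). The risen numbered 3 without 9.0 lot 2, and the fallen 5 without 9.0 lot 1, 4 without 9.0 lot 2, 4 without 9.5 lot 1 and 3 without 9.5 lot 2. Etv2, the factor that starts the endothelial lineage and is then switched off, had 7.78 and 7.84 CPM at 9.0 dpc and 0.296 and 0.209 at 9.5 dpc, with wt PI at 1.89 and 0.762 CPM (ratio 33.8, 95% interval 11.3 to 166, lower). Kdr, the VEGF receptor 2, had 20.7 and 19.4 CPM at 9.0 dpc and 29.9 and 29.6 at 9.5 dpc (log2 fold change 0.58 ± 0.12, adjusted p = 0.00169). For Kdr, the call was lost without 9.0 lot 2. Clec14a, of sprouting vessels, had 0.805 and 1.46 CPM at 9.0 dpc and 9.77 and 9.30 at 9.5 dpc (log2 fold change 2.86 ± 0.27, adjusted p = 2.85e-06). For Clec14a, the change was 3.56 without 9.0 lot 2. Cdh5, VE-cadherin, had 10.7 and 12.1 CPM at 9.0 dpc and 15.99 and 12.5 at 9.5 dpc (log2 fold change 0.22 ± 0.16, adjusted p = 0.303). Pecam1, an adhesion molecule of endothelium, differed between lots in all 3 groups and was not called between stages, with 325 and 80.4 CPM at 9.0 dpc and 309 and 70.9 at 9.5 dpc, with wt PI at 315 and 87.6 CPM (log2 fold change -0.13 ± 0.09, adjusted p = 0.287). Of 8 mural cell genes 3 rose and 4 fell. The risen numbered 1 without 9.0 lot 2, and the fallen 2 of 10 tested without 9.0 lot 1, 2 without 9.0 lot 2, 2 of 10 tested without 9.5 lot 1 and 2 without 9.5 lot 2. Vtn, vitronectin, had 1.34 and 0.912 CPM at 9.0 dpc and 13.3 and 15.05 at 9.5 dpc (log2 fold change 3.80 ± 0.27, adjusted p = 1.81e-07). Acta2, smooth muscle actin, had 26.3 and 26.8 CPM at 9.0 dpc and 6.81 and 10.2 at 9.5 dpc (log2 fold change -1.56 ± 0.17, adjusted p = 1.04e-05).

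More collagen genes rose than fell: of 20 tested 9 were higher and 2 lower, the latter 0 without 9.0 lot 2, 1 without 9.5 lot 1 and 1 without 9.5 lot 2. The median collagen gene had 8333 bases of exon, within the longest of the 5 length bins, where 25.4% of genes were higher. The part of length in the collagen rises was not tested. Col3a1, a fibrillar collagen of vessels and mesenchyme (ENSMUSG00000026043.18, chromosome 1, 45311538 to 45349706), had 70.3 and 66.6 CPM at 9.0 dpc and 291 and 248 at 9.5 dpc, with wt PI at 187 and 164 CPM (log2 fold change 1.96 ± 0.09, adjusted p = 3.08e-09). Col1a2 had 24.4 and 26.4 CPM at 9.0 dpc and 67.8 and 66.3 at 9.5 dpc (log2 fold change 1.39 ± 0.11, adjusted p = 6.42e-07). Col5a2 changed by 1.09 ± 0.14 on the log2 scale. These fibrillar chains rose, whereas the summed level of the head mesenchyme list was lower at 9.5 dpc, as given above. Of 39 other matrix genes 11 rose and 10 fell, the risen numbering 7 without 9.0 lot 1, 7 without 9.0 lot 2 and 7 without 9.5 lot 2. Of these 39, 28.2% rose and 25.6% fell, against 18.7% and 22.4% of all genes tested. Sparc, a collagen-binding glycoprotein, had 59.1 and 66.6 CPM at 9.0 dpc and 134 and 132 at 9.5 dpc (log2 fold change 1.07 ± 0.09, adjusted p = 1.03e-06). Lamb1, a laminin chain of basement membranes, had 54.8 and 55.6 CPM at 9.0 dpc and 26.4 and 26.8 at 9.5 dpc (log2 fold change -1.05 ± 0.11, adjusted p = 4.41e-06). The glypican Gpc3 had 120.3 and 91.5 CPM at 9.0 dpc and 43.2 and 32.4 at 9.5 dpc (log2 fold change -1.50 ± 0.13, adjusted p = 3.82e-06).

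Most members of the neural lists rose. Of 27 neural progenitor genes 20 rose and 1 fell, the latter 0 without 9.0 lot 2 and 0 without 9.5 lot 2. Sox1 and Sox2, factors of dividing neural progenitors, were both higher, Sox1 by 0.87 ± 0.10 on the log2 scale and Sox2 by 0.77 ± 0.10 on the log2 scale. The intermediate filament genes rose more. Vim, vimentin, had 201 and 207 CPM at 9.0 dpc and 1112 and 853 at 9.5 dpc, with wt PI at 553 and 514 CPM (log2 fold change 2.25 ± 0.11, adjusted p = 6.14e-09). Nes, nestin, had 15.3 and 15.6 CPM at 9.0 dpc and 72.9 and 56.1 at 9.5 dpc, with wt PI at 23.7 and 22.9 CPM (log2 fold change 2.003 ± 0.13, adjusted p = 7.13e-08). Pou3f2, a POU factor of progenitors, had 52.9 and 50.9 CPM at 9.0 dpc and 184 and 166 at 9.5 dpc (log2 fold change 1.75 ± 0.09, adjusted p = 1.13e-08). Of 23 radial glia genes 12 rose and 4 fell, the latter 2 without 9.0 lot 2. Fabp7, the fatty acid binding protein that marks radial glia (ENSMUSG00000019874.11, chromosome 10, 57784881 to 57788450), had 85.9 and 76.2 CPM at 9.0 dpc and 897 and 811 at 9.5 dpc, with wt PI at 165 and 172 CPM (log2 fold change 3.40 ± 0.10, adjusted p = 5.37e-11). The 9.5 dpc libraries stood far above all others, and wt PI lay nearer to 9.0 dpc. The membrane protein Gpm6b had 12.6 and 14.4 CPM at 9.0 dpc and 60.7 and 60.9 at 9.5 dpc (log2 fold change 2.15 ± 0.12, adjusted p = 1.86e-08).

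In the Notch pathway, by which newborn neurons keep their neighbours undifferentiated, 15 of 29 rose and 2 fell, the latter 1 without 9.0 lot 2 and 0 without 9.5 lot 2. The ligand Dll1 had 8.86 and 11.03 CPM at 9.0 dpc and 44.4 and 36.9 at 9.5 dpc (log2 fold change 1.94 ± 0.15, adjusted p = 3.32e-07). The target Nrarp had 6.44 and 8.29 CPM at 9.0 dpc and 32.9 and 29.5 at 9.5 dpc (log2 fold change 1.98 ± 0.15, adjusted p = 4.35e-07). Hes6, which opposes Notch targets, had 4.56 and 4.47 CPM at 9.0 dpc and 15.99 and 19.8 at 9.5 dpc (log2 fold change 2.04 ± 0.18, adjusted p = 1.72e-06). Of 20 proneural and early neuronal factors 18 rose and 0 fell, and of 39 neuronal genes 36 rose and 0 fell. Onecut2, a homeobox factor of newborn neurons, had 7.25 and 7.11 CPM at 9.0 dpc and 172 and 176 at 9.5 dpc, with wt PI at 55.5 and 56.6 CPM (log2 fold change 4.61 ± 0.11, adjusted p = 2.1e-11), the smallest p of all genes. The neurofilament gene Nefl had 6.71 and 6.75 CPM at 9.0 dpc and 104 and 86.9 at 9.5 dpc, with wt PI at 17.5 and 16.1 CPM (log2 fold change 3.78 ± 0.13, adjusted p = 2e-10). Sst, which encodes the neuropeptide somatostatin, had 0 and 0.0912 CPM at 9.0 dpc and 41.5 and 58.6 at 9.5 dpc, with wt PI at 14.8 and 14.99 CPM (ratio 796, 95% interval 142 to 31476, at least 67.2 without 9.0 lot 2). Neurod1, a bHLH factor of neuronal differentiation, had 0 and 0.273 CPM at 9.0 dpc and 27.5 and 19.5 at 9.5 dpc, with wt PI at 4.58 and 4.57 CPM (ratio 106, 95% interval 35.9 to 517, at least 26.9 without 9.0 lot 2).

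Neurod4 (ENSMUSG00000048015.4, chromosome 10, 130268152 to 130280240), another bHLH factor of this step, had 0.268 and 0.912 CPM at 9.0 dpc and 29.6 and 29.2 at 9.5 dpc, with wt PI at 13.5 and 12.9 CPM (log2 fold change 5.27 ± 0.25, adjusted p = 4.6e-09). For Neurod4, the change was 6.73 without 9.0 lot 2. It is shown because 1 of its 2 windows (GRCm38 chr10:130280089-130280388, minus strand) held the E-box CAGCTG, in capitals at base 5. This E-box was in 5 of 15 matched proneural genes (33.3%) and in 10 of 29 matched neuronal genes (34.5%), against 16.9% of genes tested and 18.3% of all RefSeq genes. The E-box CAGATG was in 3 of 15 and 6 of 29, against 13.8% of genes tested.
Neurod4: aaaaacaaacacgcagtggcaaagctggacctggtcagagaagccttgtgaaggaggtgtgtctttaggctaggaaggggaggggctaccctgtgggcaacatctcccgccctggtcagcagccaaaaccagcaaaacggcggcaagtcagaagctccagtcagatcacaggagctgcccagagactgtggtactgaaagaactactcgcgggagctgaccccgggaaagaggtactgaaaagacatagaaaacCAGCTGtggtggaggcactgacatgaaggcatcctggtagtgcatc
Neither motif was tied to a factor by these data.

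Of 15 tested neuron subtype genes 10 rose and 2 fell, the latter 1 without 9.0 lot 2, 1 of 20 tested without 9.5 lot 1, 0 without 9.5 lot 2 and 4 of 20 tested without wt PI lot 1. Pou4f1, of tectal neurons and the mesencephalic trigeminal nucleus, had 4.56 and 5.29 CPM at 9.0 dpc and 53.9 and 50.8 at 9.5 dpc, with wt PI at 22.6 and 20.1 CPM (log2 fold change 3.34 ± 0.14, adjusted p = 1.99e-09). Isl1 had 8.59 and 7.29 CPM at 9.0 dpc and 34.7 and 39.1 at 9.5 dpc (log2 fold change 2.29 ± 0.15, adjusted p = 8.47e-08). Of 57 axon guidance genes 22 rose and 10 fell, the latter 3 without 9.0 lot 2, 6 without 9.5 lot 1 and 5 without 9.5 lot 2. Dcc, the netrin receptor, had 7.78 and 7.47 CPM at 9.0 dpc and 35.2 and 33.02 at 9.5 dpc (log2 fold change 2.15 ± 0.14, adjusted p = 9e-08). Epha5 had 2.95 and 4.01 CPM at 9.0 dpc and 31.1 and 28.5 at 9.5 dpc (log2 fold change 2.97 ± 0.18, adjusted p = 4.26e-08). Of 31 synaptic genes 10 rose and 3 fell. The risen numbered 6 of 41 tested without 9.5 lot 1 and 4 without 9.5 lot 2, and the fallen 1 of 41 tested without 9.0 lot 1, 0 without 9.0 lot 2, 0 of 41 tested without 9.5 lot 1 and 1 without 9.5 lot 2. Of 181 ion channel and receptor genes 67 were tested, 19 rose and 4 fell. The risen numbered 11 without 9.0 lot 2, and the fallen 1 of 95 tested without 9.0 lot 1, 1 without 9.0 lot 2, 1 of 90 tested without 9.5 lot 1, 1 without 9.5 lot 2 and 7 of 94 tested without wt PI lot 1. Cacng4, a calcium channel and AMPA receptor auxiliary subunit, had 10.2 and 11.2 CPM at 9.0 dpc and 46.5 and 48.4 at 9.5 dpc (log2 fold change 2.13 ± 0.12, adjusted p = 2.93e-08). The median synaptic gene had 10167 bases of exon, within the longest of the 5 length bins, where 25.4% of genes were higher. The medians of the axon guidance and ion channel lists, 7880 and 7640 bases, lay in the next longest bin, where 20.8% were higher. The part of length in the rises of these 3 lists was not tested. Among kinesins 30.3% rose and 18.2% fell, against 18.7% and 22.4% of all genes tested. Of 33 kinesins 10 rose and 6 fell, the latter 3 without 9.0 lot 1, 0 without 9.0 lot 2, 1 without 9.5 lot 1 and 1 without 9.5 lot 2, with the neuronal motor Kif5c at 19.6 and 24.9 CPM at 9.0 dpc and 56.3 and 54.7 at 9.5 dpc (log2 fold change 1.27 ± 0.12, adjusted p = 1.99e-06).

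Skp1a and the core PRC2 genes, which the series is about, differed by less than 2-fold between the stages. Skp1a, the adaptor of SCF ubiquitin ligases (ENSMUSG00000036309.14, chromosome 11, 52231995 to 52246858), had 938 and 1028 CPM at 9.0 dpc and 751 and 878 at 9.5 dpc, with wt PI at 922 and 993 CPM (log2 fold change -0.27 ± 0.08, adjusted p = 0.0192). For Skp1a, the call was lost without 9.0 lot 1, 9.0 lot 2 or 9.5 lot 1. Of 16 SCF and neddylation genes 7 fell and 2 rose. The fallen numbered 4 without 9.0 lot 1, 3 without 9.0 lot 2 and 3 without 9.5 lot 1, and the risen 1 without 9.0 lot 2. Cks1b, which helps SCF recognise p27, had 633 and 635 CPM at 9.0 dpc and 318 and 397 at 9.5 dpc (log2 fold change -0.83 ± 0.10, adjusted p = 1.73e-05). Ezh2, the methyltransferase of PRC2, had 270.1 and 273 CPM at 9.0 dpc and 374 and 345.1 at 9.5 dpc, with wt PI at 255 and 236 CPM (log2 fold change 0.40 ± 0.08, adjusted p = 0.00171). For Ezh2, the call was lost without 9.0 lot 1. Suz12, its scaffold, had 87.2 and 93.3 CPM at 9.0 dpc and 156 and 132 at 9.5 dpc, with wt PI at 95.6 and 96.9 CPM (log2 fold change 0.65 ± 0.10, adjusted p = 0.000131). Eed, the subunit that reads the mark, had 118 and 127 CPM at 9.0 dpc and 103 and 111 at 9.5 dpc, with wt PI at 110.4 and 122 CPM (log2 fold change -0.20 ± 0.08, adjusted p = 0.0782), values that did not overlap between stages without passing the test. Over PRC2 and its cofactors 5 of 11 rose and 3 fell, the latter 1 without 9.0 lot 1, 1 without 9.0 lot 2 and 1 without 9.5 lot 1. Aebp2, a cofactor, had 65.2 and 63.4 CPM at 9.0 dpc and 142 and 123.3 at 9.5 dpc (log2 fold change 1.03 ± 0.09, adjusted p = 1.19e-06).

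Of 24 PRC1 genes 8 rose (33.3%) and 3 fell (12.5%). The risen numbered 3 without 9.0 lot 1, 2 without 9.0 lot 2, 4 without 9.5 lot 1 and 5 without 9.5 lot 2, and the fallen 1 without 9.0 lot 1. Bmi1, a ring finger subunit, had 80.8 and 84.04 CPM at 9.0 dpc and 170.0 and 153 at 9.5 dpc, with wt PI at 96.4 and 90.3 CPM (log2 fold change 0.96 ± 0.09, adjusted p = 2.26e-06). Rybp had 52.3 and 59.7 CPM at 9.0 dpc and 31.7 and 37.4 at 9.5 dpc (log2 fold change -0.69 ± 0.10, adjusted p = 0.0001). Of 16 DNA methylation genes 4 rose (25%) and 3 fell (18.75%), against 18.7% and 22.4% of all genes tested. The risen numbered 1 without 9.0 lot 1, 1 without 9.5 lot 1 and 2 without 9.5 lot 2, and the fallen 1 without 9.0 lot 1, 1 without 9.0 lot 2 and 1 without 9.5 lot 1. Dnmt3b, given above, was among the fallen.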

How the data were processed

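The authors deposited raw read counts per gene for 36255 genes in 1 table. The submitters' processing notes name Trim Galore 0.6.7 and the build GRCm38. RNA was enriched by poly(A) selection, per the labels' protocols. Which aligner, counter and annotation made the counts, and whether strand was used, is not given in the sources used here. Gene positions come from GENCODE M21 (GRCm38), and promoter windows from RefSeq (GRCm38.p6, 32851 windows of 300 bases).

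The 6 wild-type libraries were fitted with edgeR 4.0.16 (R 4.3.3), using TMM scaling, its default filter on low counts and the robust quasi-likelihood test, with the group (9.0 dpc, 9.5 dpc or wt PI 9.5 dpc) and the lot as terms. A gene was called at a Benjamini-Hochberg adjusted p under 0.05. The lots were kept as a block because libraries of the same lot deviated together from their group means (r across genes 0.456 to 0.501 for the 3 pairs of groups). The spread between libraries was a coefficient of variation of 7.19% with the lot and 19.6% without it. CPM values are the deposited counts scaled to the library total times its TMM factor. Groups with 0 counts were set at 3 counts, and intervals cover counting error at 95%. The procedure was run on simulated counts that held no difference between lots. That run could not check how the lot term performs where lots differ, as they do here.

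The genes named were the 12 with the largest change in each direction among called genes with a mean of at least 5 CPM, the 10 with the smallest p in each direction, up to 4 called members of each list by p, Skp1a, Ezh2, Eed, Suz12 and Meis2, and defining markers. Others (Shh, Slc2a1, Slc2a3, Ldha, Lin28b, Hmga2, Mycn, Mybbp1a, Npm1, Epas1, Cdkn1b, Sqle, Srebf2, Ptch1, Gli1, Nkx2-9, Draxin, Corin, Hbb-bs, Ddx3y, Uty and Eif2s3y) were added after their values were seen, as were 3 of the motifs. The comparison, the 60 lists and the tests were chosen with earlier results of these data known. Alternatives were the fit without the lot, with the 2 stages only, with all libraries, other scalings and filters, the older edgeR method, DESeq2 1.42.0 and leaving out each library. Some genes that the rule selects are not reported here.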

Additional observations from a re-analysis of the deposited data

How the results depend on the processing

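Of 5389 genes called, and 1522 called with at least 2-fold, the fit without the replicate block (the pairing by lot) gave 4081 and 1326. Fitting all 11 libraries without the block gave 328 and 328, and the DESeq2 Wald test gave 2252 and 869. Leaving out 1 library at a time gave 3195 to 5709 and 1322 to 1774, the lowest of the first without 9.0 lot 2. A stage with 1 library left is assumed to vary like the other groups. The number of listed genes that pass the low-count filter changes with the libraries kept. Under the other alternatives the counts were within 1.5 times the main ones, and no named gene changed direction. Of 282 named genes, 170 changed to not called with all libraries, 27 with DESeq2, 6 without the block and 8 to 20 when a library of either stage was left out. The cause was not tested. With 2 libraries per stage, and lot 1 at 3392251 to 4007663 counts, levels near 1 CPM rest on a few reads, and smaller differences in such genes were not detectable at this depth.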

Other observations

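Imprinted genes, expressed from 1 parental copy and rich in growth regulators, moved both ways: 7 of 32 rose and 13 fell. The risen numbered 4 without 9.0 lot 1, the fallen 6 without 9.0 lot 2 and 7 without 9.5 lot 2, and the median of -0.09 became 0.03 with scaling by library totals. Plagl1, a zinc finger gene, had 8.32 and 9.66 CPM at 9.0 dpc and 66.6 and 60.5 at 9.5 dpc, with wt PI at 24.8 and 28.3 CPM (log2 fold change 2.77 ± 0.13, adjusted p = 6.13e-09). Phlda2, a growth restrictor, had 13.4 and 8.20 CPM at 9.0 dpc and 0.889 and 1.15 at 9.5 dpc (log2 fold change -3.13 ± 0.29, adjusted p = 2.62e-06). For Phlda2, the change was -3.90 without 9.5 lot 2. Of 23 genes of the p53 list 10 rose and 4 fell. Trp53 itself had 58.5 and 61.98 CPM at 9.0 dpc and 23.7 and 25.4 at 9.5 dpc, with wt PI at 65.7 and 75.95 CPM (log2 fold change -1.30 ± 0.10, adjusted p = 5.96e-07), while its targets Ccng1 and Btg2, the latter also a gene of neurogenic divisions, had 28.99 and 29.2 CPM at 9.0 dpc and 76.7 and 72.000 at 9.5 dpc (log2 fold change 1.35 ± 0.10, adjusted p = 3.23e-07) and 7.52 and 7.38 CPM at 9.0 dpc and 33.2 and 32.4 at 9.5 dpc (log2 fold change 2.14 ± 0.14, adjusted p = 9e-08). Of 18 immediate early genes 5 rose and 6 fell. The risen numbered 2 without 9.0 lot 2 and 2 without 9.5 lot 2, and the fallen 3 without 9.0 lot 2 and 3 without 9.5 lot 2. Ier2 had 17.4 and 12.7 CPM at 9.0 dpc and 7.70 and 6.69 at 9.5 dpc (log2 fold change -1.01 ± 0.17, adjusted p = 0.000354). Of 36 primary cilium genes 9 rose (25%) and 4 fell (11.1%), against 18.7% and 22.4% of all genes tested. The risen numbered 5 without 9.0 lot 1, and the fallen 1 without 9.0 lot 1, 1 without 9.0 lot 2, 0 without 9.5 lot 1 and 2 without 9.5 lot 2. Ift74 of the transport complex had 88.3 and 97.3 CPM at 9.0 dpc and 133 and 142 at 9.5 dpc (log2 fold change 0.56 ± 0.09, adjusted p = 0.00015).

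Replication-dependent histone genes, whose mRNAs mostly lack a poly(A) tail and so are poorly sampled here, had 4 higher and 10 lower of 27 tested. The higher numbered 2 without 9.0 lot 1, 2 without 9.0 lot 2 and 2 without 9.5 lot 2, and the lower 4 without 9.0 lot 2 and 3 without 9.5 lot 2, and their near-identical copies are uncertain. Of 57 clustered protocadherins, which share exons, 4 were tested, 2 rose and 0 fell. The higher numbered 1 without 9.5 lot 2, and the lower 1 of 10 tested without 9.0 lot 1. Of 1509 chemoreceptor genes 362 were tested, 5 were higher and 6 lower. The higher numbered 1 without 9.0 lot 2, 3 of 541 tested without 9.5 lot 1, 26 without 9.5 lot 2, 10 of 532 tested without wt PI lot 1 and 9 without wt PI lot 2, and the lower 3 of 546 tested without 9.0 lot 1 and 11 of 532 tested without wt PI lot 1. Copies of these genes are near-identical, so single values are uncertain. Vmn2r97 had 91.8 and 89.8 CPM at 9.0 dpc and 21.6 and 19.5 at 9.5 dpc, with wt PI at 82.4 and 81.6 CPM (log2 fold change -2.16 ± 0.10, adjusted p = 5.49e-09) and Olfr1388 had 50.7 and 47.6 CPM at 9.0 dpc and 11.3 and 14.2 at 9.5 dpc, with wt PI at 34.5 and 41.9 CPM (log2 fold change -1.89 ± 0.14, adjusted p = 2.04e-07). Of 30 placental and decidual genes 9 were tested, 1 was higher (0 of 11 tested without wt PI lot 1 and 0 without wt PI lot 2) and 2 were lower, the lower 1 without 9.0 lot 2 and 1 without 9.5 lot 2. Prl8a2, a decidual prolactin family gene, had 1.61 and 1.82 CPM at 9.0 dpc and 143 and 24.7 at 9.5 dpc, with wt PI at 1.62 and 0.593 CPM (log2 fold change 4.90 ± 0.54, adjusted p = 0.00799). For Prl8a2, the change was 3.77 without 9.0 lot 1, 6.46 without 9.0 lot 2, 3.95 without 9.5 lot 1 and 6.02 without 9.5 lot 2 and the call was lost without wt PI lot 1 or wt PI lot 2. The other placental markers Prl3b1 and Tpbpa had at most 1.48 CPM in these libraries. The Y-linked genes Ddx3y, Uty and Eif2s3y had 11.9 to 80.7 CPM in all 6 libraries and were not called in the edgeR fit (adjusted p = 0.353 to 0.498). All 3 were called higher at 9.5 dpc without wt PI lot 1 (adjusted p = 0.00019 to 0.00858) and without wt PI lot 2 (adjusted p = 0.00015 to 0.0122), so this depends on the wt PI libraries. Of 4 sex-linked genes 1, Kdm5d, was called higher and 0 lower, the higher numbering 0 without 9.0 lot 1, 0 without 9.0 lot 2, 4 without wt PI lot 1 and 4 without wt PI lot 2.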
